A study of Irpex lacteus with 9 samples.

Results

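Genes grouped under nitrate and nitrite uptake and reduction in the white-rot fungus *Irpex lacteus* were followed on wheat straw with different added nitrogen. They comprise 5 genes: a nitrate transporter (BC629DRAFT_1580917), 2 genes annotated as nitrate reductase (BC629DRAFT_1283050 and BC629DRAFT_53870), a nitrite reductase (BC629DRAFT_1591045) and a gene with a formate/nitrite transporter domain (BC629DRAFT_1280622). The genes were taken by their locus tags from a table of 19212 genes, and 5 of 5 passed the filter on low counts, as did 14808 of all genes. RNA was sequenced from 9 libraries of fermented wheat straw, in 3 groups of 3: straw given distilled water, straw given an NH4Cl solution and straw given a NaNO3 solution. The straw and the fungus were common to all groups. The labels give no dose, fermentation time or strain, and they do not say whether replicates were separate cultures, so p-values measure only the spread between these libraries. The design text names *Tricholoma album* where the title and organism field name *Irpex lacteus*; the organism field was followed.

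In fungi, nitrate enters through a high-affinity transporter of the major facilitator superfamily. A molybdenum-containing nitrate reductase reduces it to nitrite, and a siroheme-containing nitrite reductase reduces nitrite to ammonium, which glutamine synthetase and glutamate dehydrogenase build into amino acids. In ascomycetes such as *Aspergillus nidulans* and *Neurospora crassa*, transcription of this set is induced by nitrate and repressed when ammonium is present. The study's comparison of an ammonium salt, a nitrate salt and water asks which genes differ with the nitrogen source. The 5 genes are annotated for nitrate uptake or for reduction of nitrate or nitrite, except the formate/nitrite transporter domain gene, whose substrate is not known.

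Total counts ran from 17896230 to 23194078 per library. NH4Cl replicate 3 and NaNO3 replicate 1 stood apart from the other 7 libraries: genes with a peroxidase domain took 2.68% and 1.03% of their counts, against 4.71% to 7.0% elsewhere, and genes named as cellulases or related took 1.37% and 0.466%, against 0.0419% to 0.219%. The edgeR fits and the ratio tests were therefore also computed without these 2 libraries; correlations, counts of groups that do not overlap and levels per gene length rest on all 9. Of genes of wheat photosynthesis, 0 were found in the annotation, and the table holds fungal gene models. Levels are CPM, read counts divided by the TMM-scaled library total, or, where genes are compared with one another, FPKM, which is per gene length. A gene is called when its edgeR quasi-likelihood p-value, Benjamini-Hochberg adjusted over all 14808 genes, is under 0.05.

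The clearest differences were between NaNO3 and NH4Cl. These salts also differ in sodium and chloride, so the nitrogen form and the accompanying ion cannot be told apart. With NaNO3 the nitrate transporter was 14.8-fold higher than with NH4Cl and the nitrate reductase BC629DRAFT_1283050 was 3.98-fold higher, with water between the 2 salts for both genes. Nitrite reductase, the second nitrate reductase gene and the formate/nitrite transporter domain gene were not called in any comparison by edgeR on all 9 libraries.

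The nitrate transporter is annotated by its best Swiss-Prot match to CrnA of *Emericella nidulans* (*Aspergillus nidulans*), the nitrate permease of that fungus. Its level was 4.87, 5.01 and 8.32 CPM in NaNO3 replicates 1, 2 and 3. It was 4.16, 1.80 and 1.23 CPM in the water replicates and 0.398, 0.569 and 0.254 CPM in the NH4Cl replicates. All 3 NaNO3 libraries thus lay above all water libraries, and all water libraries above all NH4Cl libraries, although water replicate 1 came close to the NaNO3 group. In these bulk samples, fewer cells that express a gene and less RNA per cell cannot be told apart. These are low levels, resting on 89 to 167 counts with NaNO3, 22 to 94 with water and 5 to 10 with NH4Cl. The 5 counts of NH4Cl replicate 3 have an exact Poisson 95% interval of 1.62 to 11.7 counts and the 10 of NH4Cl replicate 2 one of 4.79 to 18.4, which cover counting error only.

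The transporter rose with NaNO3 against NH4Cl by a log2 change of 3.89 ± 0.54 (SE; adjusted p = 0.0242, edgeR), from a mean of 0.407 ± 0.158 to 6.07 ± 1.95 CPM (SD, n = 3 each). It ranked 48 by size of change and 35 by p-value among the 14808 genes. Against water the log2 difference was −2.56 ± 0.55 with NH4Cl (adjusted p = 0.0641) and 1.33 ± 0.45 with NaNO3 (adjusted p = 0.118), neither of them called by edgeR. The water mean was 2.40 ± 1.56 CPM, and without water replicate 1 the NaNO3 difference was 2.0 (adjusted p = 0.0475). The call between the salts did not hold without water replicate 2, NH4Cl replicate 1 or 2, or NaNO3 replicate 2 or 3 (adjusted p = 0.0569 to 0.0903), while the log2 change stayed between 3.59 and 4.20 without any 1 library. Without both libraries that stand apart it was 3.77 (adjusted p = 0.0232). In the authors' deposited table, made with DESeq2 (FDR 0.01, fold 2), the transporter is lower with NH4Cl than with water (log2 −2.54) and higher with NaNO3 than with NH4Cl (log2 3.9).

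**Figure D1:**
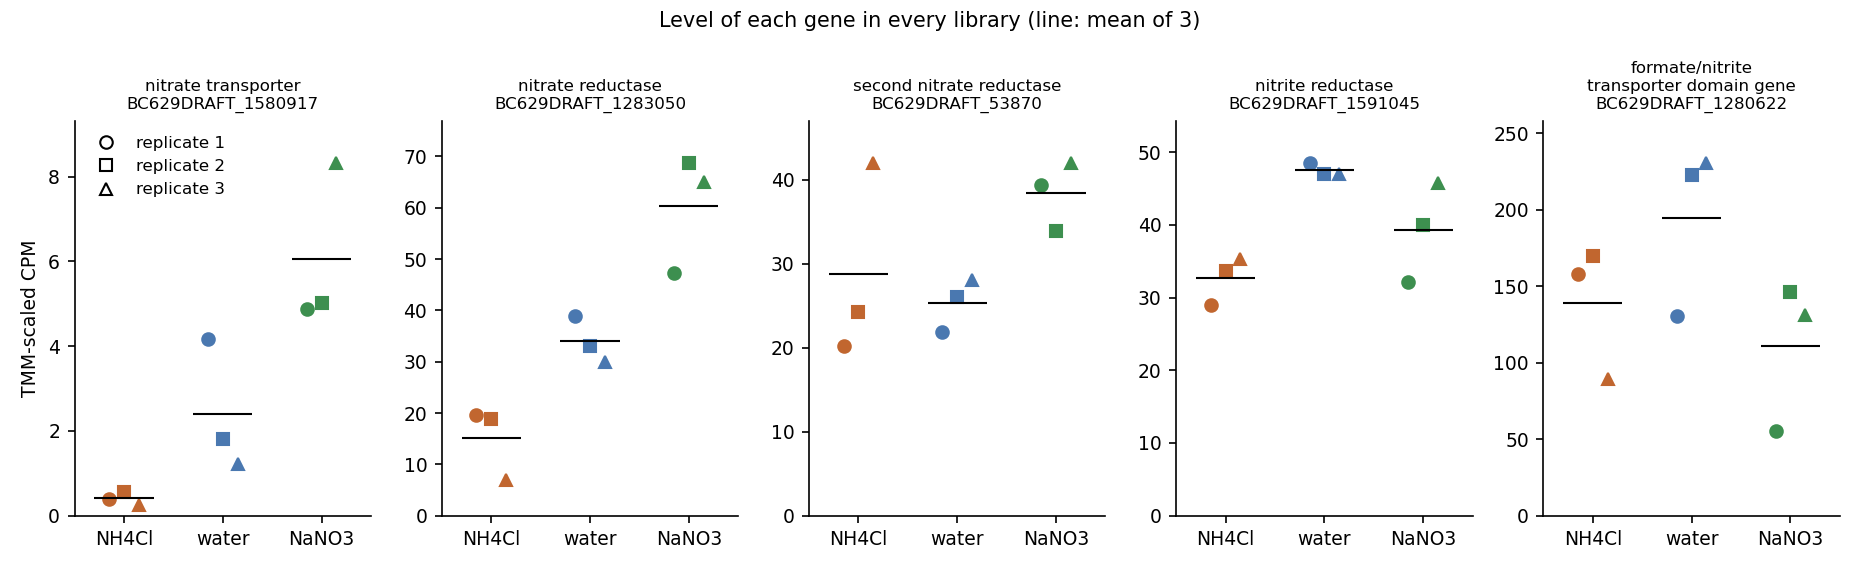
TMM-scaled CPM of each of the 5 genes (linear axis from 0, 1 panel per gene) in the NH4Cl, water and NaNO3 libraries; symbols mark the replicate and lines the mean of 3. The nitrate transporter and the nitrate reductase BC629DRAFT_1283050 are ordered NH4Cl, water, NaNO3 with no overlap between groups, while the NH4Cl library at 42.0 CPM in the second nitrate reductase panel is replicate 3.

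The nitrate reductase BC629DRAFT_1283050 carries GO terms for heme binding, molybdenum ion binding and nitrate assimilation. Its best Swiss-Prot match is the NADPH nitrate reductase of *Ustilago maydis*, a basidiomycete as *Irpex lacteus* is. Its level was 47.3, 68.7 and 64.9 CPM in NaNO3 replicates 1, 2 and 3. In the water replicates it was 38.8, 33 and 30.0 CPM, and in the NH4Cl replicates 19.7, 18.9 and 6.96 CPM. The 3 groups did not overlap, and NH4Cl replicate 3 was the lowest library and NaNO3 replicate 1 the lowest of its group. The gene rose with NaNO3 against NH4Cl by a log2 change of 1.99 ± 0.36 (adjusted p = 0.0462, edgeR; means 15.2 ± 7.13 and 60.3 ± 11.4 CPM, SD, n = 3).

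Against water the nitrate reductase differed by a log2 of −1.16 ± 0.35 with NH4Cl (adjusted p = 0.134) and 0.83 ± 0.35 with NaNO3 (adjusted p = 0.187). Without both libraries that stand apart, it was called in all 3 comparisons by edgeR. The changes were then −0.80 with NH4Cl against water (adjusted p = 0.0331), 0.99 with NaNO3 against water (adjusted p = 0.0221) and 1.79 with NaNO3 against NH4Cl (adjusted p = 0.00554). With all libraries but 1, the call between the salts was kept only without NH4Cl replicate 3 (adjusted p = 0.0135), where the gene was also called with NaNO3 against water (log2 0.85, adjusted p = 0.0356). It did not hold without water replicate 1, 2 or 3, NH4Cl replicate 1 or 2, or NaNO3 replicate 1, 2 or 3 (adjusted p = 0.0582 to 0.12), with a log2 change of 1.62 to 2.23 over the 9 omissions. In the authors' deposited table it is higher with NaNO3 than with NH4Cl (log2 1.99) and not called against water. There NaNO3 against water passed the authors' FDR of 0.01 but not their fold of 2 (log2 0.85, DESeq2 FDR 0.00316). NH4Cl against water passed the fold but not the FDR (log2 −1.13, DESeq2 FDR 0.0431).

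The second nitrate reductase gene, BC629DRAFT_53870, has the same KEGG entry and the same molybdopterin domain as the first. Its best Swiss-Prot match is NiaD of *Aspergillus niger*, and its GO terms name only oxidoreductase activity and molybdenum ion binding. It stood at 39.4, 33.9 and 42.0 CPM in NaNO3 replicates 1, 2 and 3. Levels were 21.9, 26.1 and 28.0 CPM with water, and 20.2, 24.3 and 42.0 CPM with NH4Cl. The NaNO3 and water libraries did not overlap, whereas NH4Cl replicate 3 lay with the NaNO3 libraries and the other NH4Cl libraries with water. Log2 differences were 0.60 ± 0.26 for NaNO3 against water (adjusted p = 0.195), 0.19 ± 0.26 for NH4Cl against water (adjusted p = 0.75) and 0.42 ± 0.26 for NaNO3 against NH4Cl (adjusted p = 0.389). Without both libraries that stand apart, the value for NH4Cl against water turned to −0.17 (adjusted p = 0.584), and that for NaNO3 against NH4Cl was 0.77 (adjusted p = 0.0632).

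Nitrite reductase, BC629DRAFT_1591045, has its best Swiss-Prot match in NiiA of *Emericella nidulans*. Its level was 48.5, 47.1 and 47.0 CPM in the water replicates, the tightest group of the 5 genes. It was 29.0, 33.6 and 35.4 CPM with NH4Cl and 32.1, 40.0 and 45.8 CPM with NaNO3. Every library of either salt thus lay below every water library, and the 2 salts overlapped. The log2 difference was −0.54 ± 0.16 with NH4Cl against water (adjusted p = 0.119), −0.27 ± 0.16 with NaNO3 against water (adjusted p = 0.309) and 0.27 ± 0.16 between the salts (adjusted p = 0.355). Nitrite reductase fell with NH4Cl against water by a log2 of 0.59 (adjusted p = 0.049) when both libraries that stand apart were left out. With all libraries, DESeq2 (adjusted p = 0.0358) and voom with library weights (adjusted p = 0.0233) also called it lower in that comparison. Limma on log2 FPKM plus 1 did not (adjusted p = 0.189). The authors' deposited table does not call it there (log2 −0.51, DESeq2 FDR 0.0238).

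The formate/nitrite transporter domain gene, BC629DRAFT_1280622, belongs to a family of membrane channels for small anions, of which some carry formate and others nitrite. The table gives it no KEGG entry, and its best Swiss-Prot match is a *Saccharomyces cerevisiae* transporter listed there as uncharacterized, so its substrate is not known from these annotations. Its level was 131, 223 and 230.4 CPM in water replicates 1, 2 and 3. It was 158, 169.9 and 89.6 CPM with NH4Cl and 55.4, 146 and 131 CPM with NaNO3. The lowest library of each salt group was the one that stands apart, and all 3 pairs of groups overlapped. Log2 differences were −0.81 ± 0.40 for NaNO3 against water (adjusted p = 0.252), −0.48 ± 0.40 for NH4Cl against water (adjusted p = 0.56) and −0.33 ± 0.40 between the salts (adjusted p = 0.675). They were −0.47, −0.23 and −0.24 when both libraries that stand apart were left out. The part in these values of whatever sets the 2 libraries apart was not tested.

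**Figure D2:**
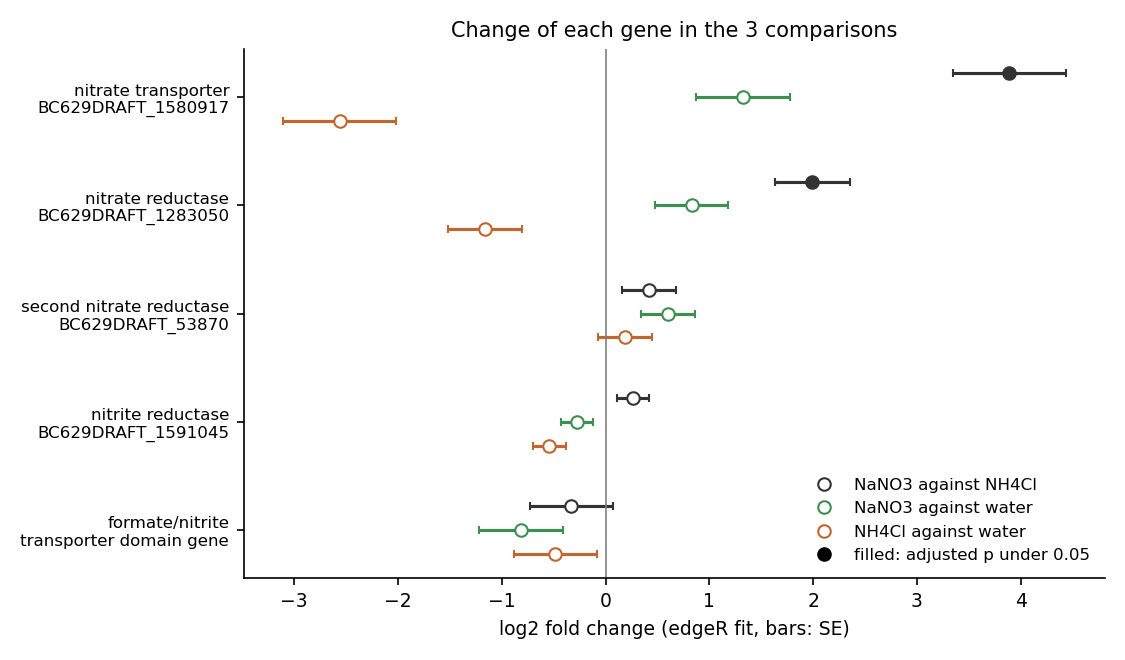
Log2 fold change of each gene from the edgeR fit on all 9 libraries, with bars of 1 SE, for NaNO3 against NH4Cl, NaNO3 against water and NH4Cl against water; filled points have an adjusted p under 0.05. The 2 filled points are the nitrate transporter at 3.89 and the nitrate reductase BC629DRAFT_1283050 at 1.99, both for NaNO3 against NH4Cl.

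Counted over the 5 genes, 2 were higher and 0 lower with NaNO3 than with NH4Cl, where edgeR called 1.09% of all tested genes (0.5% higher); the same 2 genes had an unadjusted p under 0.05, as did 21.1% of all genes. With NH4Cl against water edgeR called 0 of 5 genes and 0.675% of all genes. The unadjusted p was under 0.05 for 3 of 5 and for 18.8% of all genes. DESeq2 called those 3 lower, beside 625 of all 14808 genes lower. They are the transporter, the nitrate reductase BC629DRAFT_1283050 and nitrite reductase. Voom with library weights called 2 lower, the nitrate reductase BC629DRAFT_1283050 and nitrite reductase, beside 1208 of all. Limma on FPKM called 0, beside 76 of all in either direction. With NaNO3 against water edgeR called 0 of 5 genes and 5.06% of all genes (1.18% higher, 3.88% lower). The unadjusted p was under 0.05 for 3 of 5 and for 24.7% of all genes. DESeq2 called 1 higher, beside 882 of all 14808 genes higher. Voom called 2 higher, beside 763 of all, and limma called 0, beside 414 of all in either direction.

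Libraries of NaNO3 and water did not overlap for 4 of the 5 genes, beside 33% of all tested genes; 3 were higher (14.2% of all) and 1, nitrite reductase, lower (18.8%). For NH4Cl and water they did not overlap for 3 genes, beside 28% of all, with 0 higher (11.9%) and 3 lower (16.1%). For the salts they did not overlap for 2 genes, both higher with NaNO3, beside 25.2% of all (12.3% higher). The median log2 difference of the 5 genes was 0.60 for NaNO3 against water, −0.54 for NH4Cl against water and 0.42 between the salts, beside −0.03, −0.02 and −0.02 over all genes. The comparisons share libraries, so these values are not independent of one another.

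Per gene length, the formate/nitrite transporter domain gene had the highest level of the 5 in every library and the nitrate transporter the lowest. The channel-family gene stood at 190 ± 56.2 FPKM with water, 139 ± 36.8 with NH4Cl and 110 ± 38.1 with NaNO3 (SD, n = 3). The nitrate transporter stood at 1.39 ± 0.896, 0.237 ± 0.0839 and 3.71 ± 1.07 FPKM in the same groups. Between them, the order of the 3 reductases differed among groups. With water, nitrite reductase (12.0 ± 0.156 FPKM) and the nitrate reductase BC629DRAFT_1283050 (10.9 ± 1.33) overlapped, and the second nitrate reductase gene was below both at 6.17 ± 0.825. With NH4Cl the nitrate reductase was the lowest by mean at 4.93 ± 2.12, beside 7.40 ± 3.53 for the second gene, whose libraries overlapped its own, and 8.63 ± 1.41 for nitrite reductase, whose libraries did not. The order of the nitrate reductase and the second gene turned on NH4Cl replicate 3, which stands apart, at 2.49 and 11.4 FPKM. In replicates 1 and 2 the nitrate reductase was the higher, at 6.17 against 4.80 and 6.14 against 5.98 FPKM. With NaNO3 the nitrate reductase was the highest of the 3 at 20.1 ± 1.35 FPKM, above all libraries of nitrite reductase (10.4 ± 1.07) and of the second gene (9.94 ± 1.96), which overlapped each other.

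**Figure D3:**
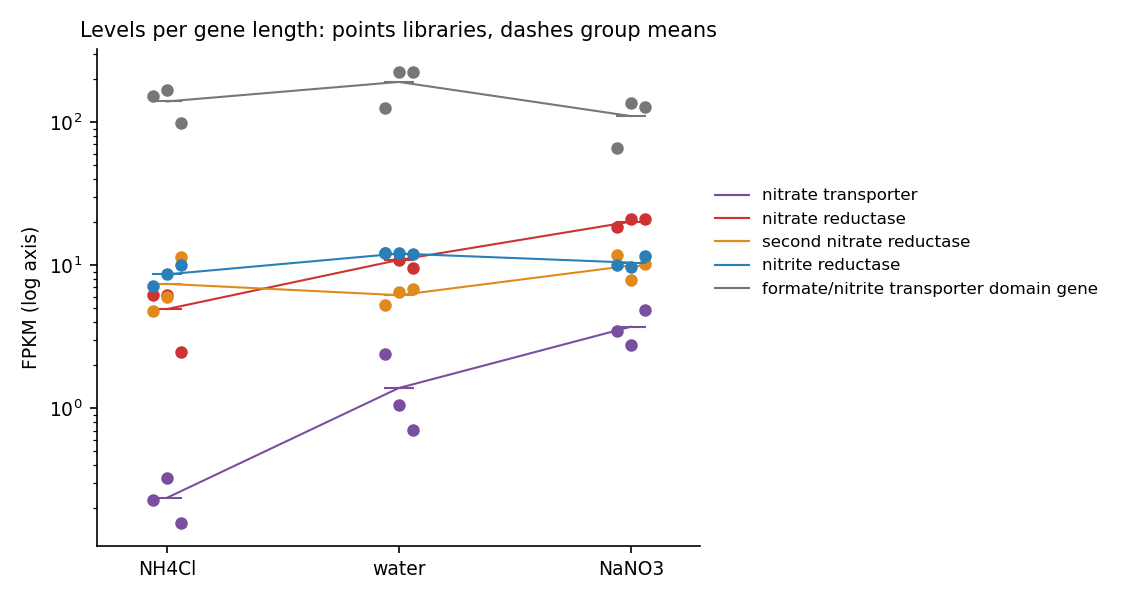
FPKM of the 5 genes on a log axis in the NH4Cl, water and NaNO3 groups; points are libraries, dashes are group means of 3 and lines join the means of a gene. The nitrate reductase crosses from below nitrite reductase with NH4Cl (4.93 against 8.63) to above it with NaNO3 (20.1 against 10.4).

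Whether the nitrate reductase moved apart from the other genes was tested on the ratio of its FPKM to theirs within each library, which does not depend on scaling between libraries. An exact permutation test of the F statistic over the 3 groups was used, with 1680 arrangements. It can reach a p of 0.00357 at the smallest, and it was chosen after the values were seen. Its p covers all 3 groups at once, so the differences between the 2 salts given beside it were not tested by themselves. The ratio of nitrate reductase to nitrite reductase was 1.86, 2.17 and 1.79 in the NaNO3 replicates. It was 1.01, 0.886 and 0.807 with water and 0.857, 0.71 and 0.248 with NH4Cl, and NaNO3 did not overlap the other groups (exact p = 0.00714; 0.0143 adjusted over the 4 ratios). On the log2 scale the mean difference between NaNO3 and NH4Cl was 1.86, and it stayed between 1.31 and 2.21 without any 1 library (exact permutation p = 0.00357 to 0.0214) and at 1.34 without both libraries that stand apart (exact permutation p = 0.0381).

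The ratio of the nitrate reductase to the second nitrate reductase gene was 1.58, 2.67 and 2.04 with NaNO3. It was 2.34, 1.66 and 1.41 with water and 1.29, 1.03 and 0.218 with NH4Cl, where the last value is replicate 3. NaNO3 and water overlapped and NH4Cl lay below both (exact permutation p = 0.025; 0.025 adjusted). The mean log2 difference between the salts was 1.64, and 0.835 without NH4Cl replicate 3 (exact permutation p = 0.132). The p was also above 0.05 without any 1 water or NaNO3 library (exact permutation p = 0.0607 to 0.114, with differences of 1.44 to 1.82), and was 0.0952 by the same exact permutation test without both libraries that stand apart (difference 1.02).

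Against the nitrate transporter, the nitrate reductase ratio was 27.1, 18.9 and 15.7 with NH4Cl, 5.10, 10.2 and 13.7 with water and 5.33, 7.53 and 4.28 with NaNO3. The ratio was thus higher in every NH4Cl library than in any other, and the exact permutation p over the 3 groups was 0.0214 (0.025 adjusted). These NH4Cl ratios divide by only 7, 10 and 5 transporter counts. The 5 counts belong to replicate 3, whose ratio of 15.7 lies nearest to water, and have an exact Poisson 95% interval of 1.62 to 11.7. By edgeR fold the transporter differed by more between the salts (14.8) than the reductase did (3.98), which was not tested by itself. Without NH4Cl replicate 1, 2 or 3, or NaNO3 replicate 1 or 3, the p was 0.0536 to 0.0786 by the same exact permutation test, with the difference between the salts at −1.63 to −2.02 on the log2 scale, and it was 0.105 (difference −1.99) without both libraries that stand apart. The ratio to the formate/nitrite transporter domain gene was 0.28, 0.154 and 0.163 with NaNO3 and 0.0254 to 0.0976 in the other 6 libraries (exact permutation p = 0.00357, the smallest the test can give; 0.0143 adjusted), with an exact permutation p of 0.0571 and a log2 difference of 2.04 between the salts, instead of 2.51, without both libraries that stand apart.

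**Figure D4:**
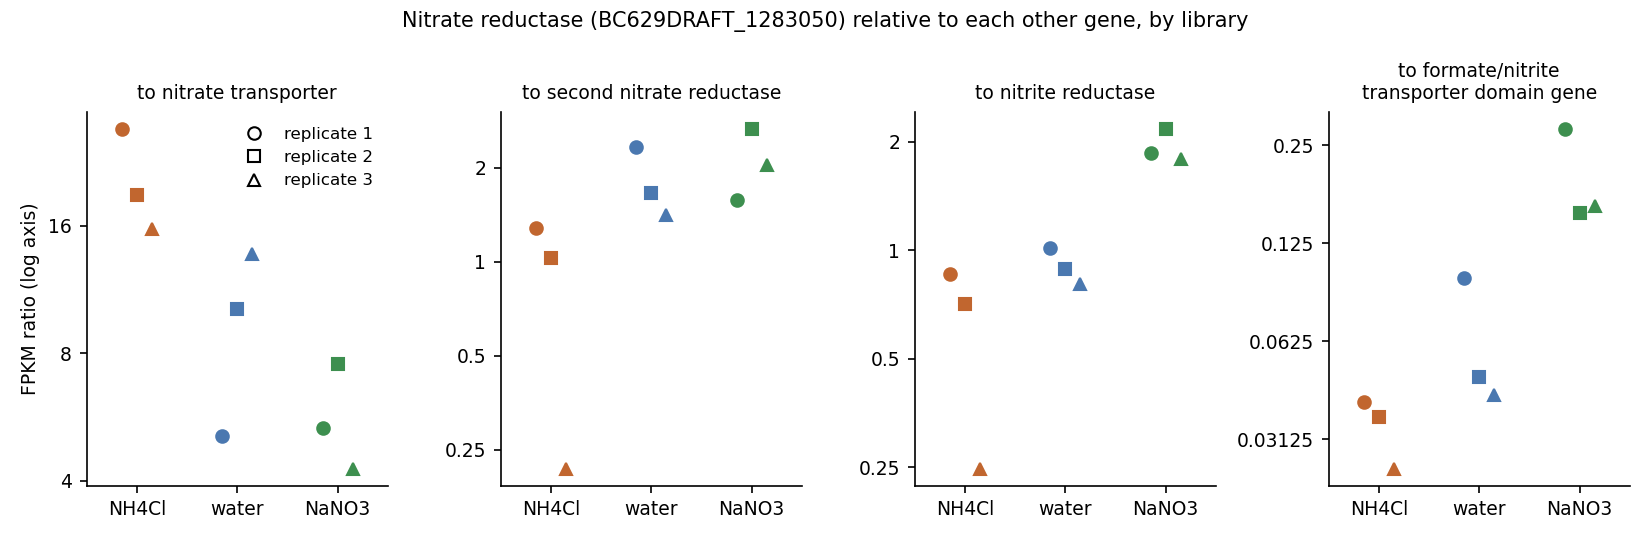
FPKM of nitrate reductase BC629DRAFT_1283050 divided by that of each other gene in the same library (log axis, 1 panel per gene) for NH4Cl, water and NaNO3; symbols mark the replicate. The ratio to nitrite reductase lies between 1.79 and 2.17 with NaNO3 and between 0.248 and 1.01 in the other libraries.

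Across the 9 libraries, log2 CPM of the nitrate transporter and the nitrate reductase correlated at a Pearson r of 0.93. For the other pairs of the 5 genes r ran from −0.58, for the second nitrate reductase gene and the formate/nitrite transporter domain gene, to 0.51, for the transporter and nitrite reductase. The 9 points share the 3 group differences, so r is given as a description. Among 9760 other genes with a mean of at least 5 CPM, the gene most like the transporter was BC629DRAFT_1647362 (r = 0.99), named for aldehyde reductase 2. Next came the beta subunit of succinate-CoA ligase (BC629DRAFT_1470839, r = 0.97) and NADH-cytochrome b5 reductase 2 (BC629DRAFT_1588484, r = 0.97). The 3 most like the nitrate reductase were a G-protein alpha subunit (BC629DRAFT_1277076, r = 0.98), an alcohol dehydrogenase-like gene (BC629DRAFT_1581336, r = 0.97) and BC629DRAFT_692155 (r = 0.97), which has no named product. The aldehyde reductase gene stood at 246 to 388 CPM with water, 108 to 146 with NH4Cl and 538 to 546 with NaNO3.

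The other 3 genes had different nearest patterns. For the second nitrate reductase gene these were an acid phosphatase (BC629DRAFT_1071904, r = 0.96), mitochondrial NADP isocitrate dehydrogenase (NewGene_2378, r = 0.96) and an acyl-CoA synthetase (BC629DRAFT_1294482, r = 0.95). For nitrite reductase the nearest was a gene named as a low affinity ammonium transporter (BC629DRAFT_1595697, r = 0.94), followed by INO80 complex subunit 2 (BC629DRAFT_1588821, r = 0.93) and an Rcd1-like cell differentiation gene (BC629DRAFT_1583922, r = 0.92). For the formate/nitrite transporter domain gene they were BC629DRAFT_1469331 (r = 0.99), BC629DRAFT_366300 (r = 0.98), neither with a named product, and a cytochrome P450 (BC629DRAFT_61707, r = 0.98).

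Other genes of the pathway were grouped in 9 lists by their annotation, some of which share genes. Over all 14808 genes the unadjusted p was under 0.05 for 24.7% with NaNO3 against water, 18.8% with NH4Cl against water and 21.1% between the salts. In the same order DESeq2 called 1925, 1171 and 1397 genes, voom 2284, 1924 and 1064, and limma on log2 FPKM plus 1 called 414, 76 and 119. Nitrate reductase needs a molybdenum cofactor, and 13 tested genes were found by words for that cofactor or for molybdopterin. They include 2 genes for a subunit of respiratory complex I (NewGene_2329 and BC629DRAFT_1593080), and 2 genes whose best Swiss-Prot match is a nitrate reductase but whose KEGG entry is sulfite oxidase (BC629DRAFT_1591999 and BC629DRAFT_1282539). By edgeR 0 of the 13 were called in any comparison. Before adjustment, p was under 0.05 for 1 gene higher and 0 lower with NaNO3 against water, 1 and 1 with NH4Cl against water, and 1 and 2 with NaNO3 against NH4Cl (DESeq2: 1 and 0, 1 and 0, 0 and 2; voom: 1 and 0, 1 and 1, 1 and 1; limma: 0). A MoaC family gene (BC629DRAFT_1582376) of cofactor synthesis stood at 35.4 ± 4.97 CPM with water and 59.0 ± 10.8 with NaNO3 (log2 0.74, adjusted p = 0.0518), and was called without both libraries that stand apart; it was named after its value was seen. BC629DRAFT_1282539 stood at 5.84 ± 0.837 CPM with water, 9.78 ± 0.238 with NH4Cl and 6.33 ± 0.546 with NaNO3, and was called higher with NH4Cl than with water when both libraries that stand apart were left out (log2 0.76, adjusted p = 0.0476; 0.74 and 0.0585 with all libraries). NewGene_1332, also matched to a nitrate reductase and under sulfite oxidase in KEGG, stood at 7.07 ± 2.40, 7.97 ± 0.954 and 5.89 ± 0.487 CPM. BC629DRAFT_1591999 stood at 114 to 175 CPM with water, 38.7 to 124 with NH4Cl and 59.3 to 128 with NaNO3.

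Siroheme, the prosthetic group of nitrite reductase, had 3 tested genes, of which edgeR called 0 in any comparison, with 0 at an unadjusted p under 0.05 and 0 by DESeq2, voom or limma. The siroheme synthesis gene named for met8 (BC629DRAFT_1278296) stood at 11.5 ± 1.05 CPM with water, 9.45 ± 1.06 with NH4Cl and 10.5 ± 1.41 with NaNO3. The uroporphyrinogen-III methyltransferase (BC629DRAFT_1587515) stood at 5.60 ± 0.549, 3.83 ± 0.52 and 5.20 ± 2.48 CPM. The remaining gene, BC629DRAFT_1483704, carries no Swiss-Prot name and stood at 25.4 ± 0.293, 23.7 ± 5.75 and 20.1 ± 11.1 CPM.

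Ammonium assimilation, but not ammonium uptake, follows the reductases in the pathway, and 17 genes found by words for either were tested. With NaNO3 against NH4Cl 2 were higher and 0 lower by edgeR, the ammonium transporters NewGene_3477 (log2 4.30 ± 0.74, adjusted p = 0.0416) and BC629DRAFT_1596464 (log2 4.54 ± 0.81, adjusted p = 0.0452). The first stood at 19.8 to 24.2 CPM with NH4Cl and 392 to 519 with NaNO3, and the second at 2.85 to 3.91 and 54.2 to 119 CPM. Between the salts 9 of the 17 genes were higher and 0 lower before adjustment, beside 21.1% of all genes in either direction. DESeq2 called 7 higher, voom 6 and limma 1, beside 696, 585 and 46 of all 14808 genes higher. A further gene of the ammonium transporter family, BC629DRAFT_1491064, stood at 20.2 ± 1.40 CPM with water, 12.9 ± 4.51 with NH4Cl and 11.1 ± 4.33 with NaNO3 (log2 −0.21 between the salts). With water the 2 called transporters ranged widely, from 30.8 to 341 and from 4.75 to 56.5 CPM. Without both libraries that stand apart the first remained called, together with NAD-specific glutamate dehydrogenase (BC629DRAFT_1592883) and BC629DRAFT_1595697. With NaNO3 against water 1 rose, a gene with a glutamine synthetase domain (BC629DRAFT_1596891; 5.58 ± 1.69 to 17.3 ± 5.62 CPM, log2 1.63, adjusted p = 0.0371); before adjustment 7 were higher and 2 lower, and DESeq2 called 3 higher, voom 3 higher and 1 lower, and limma 0. With NH4Cl against water 0 were called by edgeR (unadjusted p under 0.05 for 1 higher and 5 lower; DESeq2 and voom: 5 lower; limma: 0). The 2 most abundant glutamine synthetase genes, BC629DRAFT_780516 and NewGene_1883, were not called, with 592 ± 47.0 and 534 ± 42.6 CPM with NaNO3 beside 323 ± 38.9 and 268 ± 26.3 with NH4Cl. The search words also took in other genes, among them 2 folylpolyglutamate synthases and 2 arginine synthesis genes. Both arginine synthesis genes (BC629DRAFT_1513268 and BC629DRAFT_1469046) and the folylpolyglutamate synthase BC629DRAFT_1444482 are among the 9 genes higher between the salts before adjustment. The list's median log2 difference was 0.55 between the salts, beside −0.02 over all genes.

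The oxidative branch of the pentose phosphate pathway makes NADPH, the electron donor of fungal nitrate and nitrite reductase. Of its 9 tested genes edgeR called 0 in any comparison; with NaNO3 against water 5 had p under 0.05 before adjustment, all of them higher (DESeq2: 5 higher; voom: 4; limma: 2), and the median log2 difference was 0.70, beside −0.03 over all genes. With NH4Cl against water 1 was higher, and with NaNO3 against NH4Cl 3 were higher and 1 lower, by the same unadjusted threshold (DESeq2: 1 higher, then 3 and 1; voom: 1 higher, then 1 and 1; limma: 0). Glucose-6-phosphate dehydrogenase (BC629DRAFT_1706912) stood at 254 to 344 CPM with water, 317 to 369 with NH4Cl and 426 to 531 with NaNO3 (log2 0.76 for NaNO3 against water, adjusted p = 0.0532). It and a further glucose-6-phosphate dehydrogenase gene, BC629DRAFT_1295200, were called in that comparison without both libraries that stand apart. 6-phosphogluconate dehydrogenase (BC629DRAFT_1674248) stood at 1684 ± 265 CPM with water, 1896 ± 171 with NH4Cl and 2477 ± 448 with NaNO3. The search words also took in a glucosamine-6-phosphate isomerase (BC629DRAFT_1583282) and a secreted protein of unknown function (BC629DRAFT_566944), neither of them among the 5. BC629DRAFT_1451929, with a domain of 6-phosphogluconate dehydrogenase, stood at 291 ± 48.5, 281 ± 113 and 206 ± 162 CPM.

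**Figure D5:**
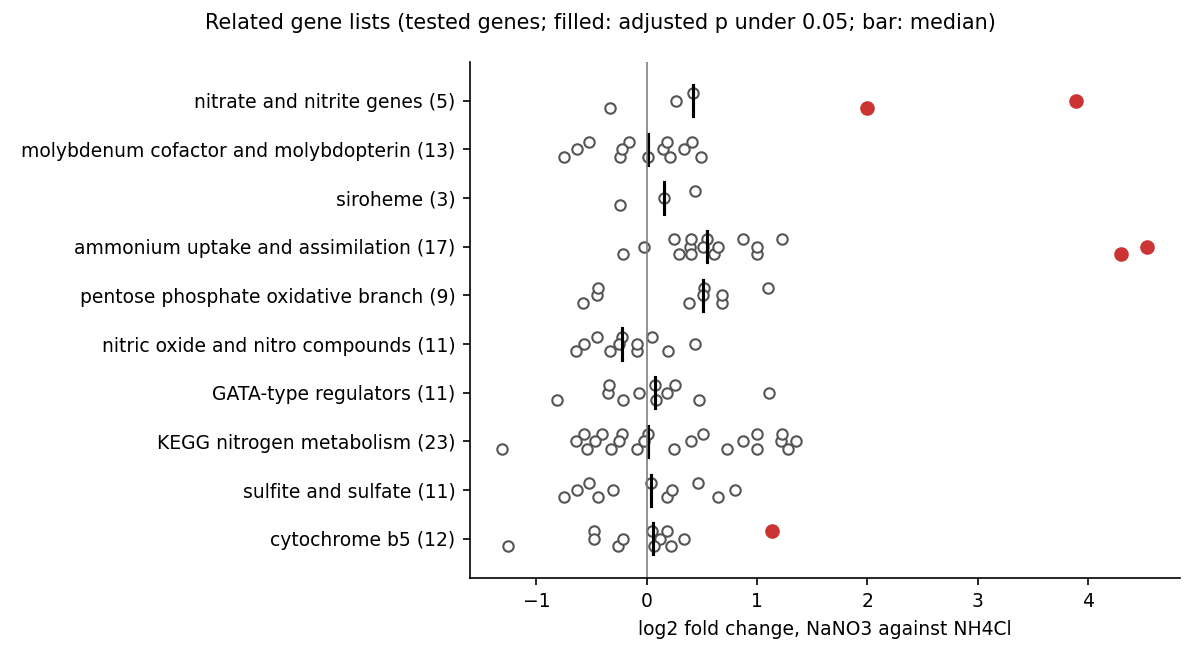
Log2 fold change with NaNO3 against NH4Cl (edgeR) of the 5 nitrate and nitrite genes and of 9 related lists, with the number of tested genes in brackets; each point is a gene, filled points have an adjusted p under 0.05 and bars are list medians. Filled points are 2 nitrate genes, 2 ammonium transporters and 1 cytochrome b5 reductase at 1.14.

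Regulators were searched as GATA factors, the class to which AreA and NIT2, the nitrogen regulators of *Aspergillus* and *Neurospora*, belong, and by names for nitrogen regulation. By edgeR 0 of 11 tested genes were called in any comparison. Before adjustment, p was under 0.05 for 0 higher and 1 lower with NaNO3 against water, 2 and 3 with NH4Cl against water, and 1 and 1 between the salts (DESeq2: 0 and 0, 0 and 1, 0 and 1; voom: 1 and 1, 2 and 1, 0 and 1; limma: 0). Between the salts the higher gene was BC629DRAFT_1500820, named for glutathione S-transferase 2, and the lower was BC629DRAFT_1590437, named for white collar 1 protein. Both are also among those counted with NH4Cl against water. The most abundant GATA zinc finger gene, BC629DRAFT_1290929, stood at 1493 ± 117 CPM with water, 633 ± 141 with NH4Cl and 880 ± 261 with NaNO3. Its log2 difference was −1.24 for NH4Cl against water (adjusted p = 0.0698), and without both libraries that stand apart it was called lower with either salt (log2 −1.41 with NH4Cl and −0.99 with NaNO3). In that fit another GATA gene, BC629DRAFT_1284964, named for suppressor of ferric uptake 1, was called higher with either salt (log2 1.35 with NH4Cl and 1.03 with NaNO3). With all libraries it stood at 143 ± 6.73 CPM with water, 288 ± 125 with NH4Cl and 247 ± 70.4 with NaNO3 and was not called. The next by FPKM, BC629DRAFT_1254412 and BC629DRAFT_1242680, stood at 92.5 ± 15.2 and 46.8 ± 3.07 CPM with water. A gene named for NIT-4, the nitrate-specific activator of *Neurospora crassa* (BC629DRAFT_1241455), was looked at after its values were seen. It stood at 60 to 64.8 CPM with water, 46.9 to 55.4 with NH4Cl and 54.4 to 71.2 with NaNO3 (log2 0.26 ± 0.14 between the salts, adjusted p = 0.333).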

How the data were processed

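Messenger RNA was purified and sequenced in 9 libraries, per the labels' protocols, which describe both a plant and an animal RNA extraction without saying which was used. The submitters' processing notes list HISAT2 and StringTie; their versions, genome build and counting options are not given in the sources used here. The authors deposited whole-number counts per gene and library, used as raw counts, and FPKM values, which are per gene length and library size. Further deposited columns hold the authors' DESeq2 fold changes and adjusted p-values. The table gives no coordinates or sequences.

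Counts of all 9 libraries were fitted with edgeR 4.0.16 in R 4.3.3 (filterByExpr, TMM, glmQLFit, glmQLFTest; no block; 3 contrasts) and p-values were Benjamini-Hochberg adjusted over 14808 genes. The SE is the unshrunk log2 fold change divided by the square root of F. Log2 CPM for correlations used a prior count of 2. The biological coefficient of variation was 0.317, and 0 library pairs were identical. Alternatives were DESeq2 1.42.0, limma 3.58.1 on log2 FPKM with a pseudocount of 1 or 0.1, voom weights, other filters and omitted libraries. The fit was tested on counts simulated from its own estimate of the spread. No simulated library stood apart, so that test cannot show how such libraries affect the calls.

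The genes and lists were chosen with earlier results of these data known. Named genes are the 5 genes, the 3 most correlated with each, every gene of a list with up to 6 tested genes, and of longer lists the called genes and the 3 highest by mean FPKM; of the latter the text prints a part. Other genes named from the lists were chosen after their values were seen. Genes with near-identical copies could share counts, which was not checked without sequences.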

Additional observations from a re-analysis of the deposited data

How the results depend on the processing

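NaNO3 against water gave 749 called genes with edgeR on all libraries, 1925 with DESeq2, 414 and 353 with limma on log2 FPKM plus 1 and plus 0.1, 492 with only these groups in the fit and 2284 with voom library weights. NH4Cl against water gave 100, and then 1171 (DESeq2), 18 (limma, plus 0.1), 48 (no filter), 10 (only these groups), 765 (both libraries that stand apart left out) and 1924 (voom). NaNO3 against NH4Cl gave 162, and then 1397, 101 (limma, plus 0.1), 12 (only these groups), 810 (both left out) and 1064 (voom). Of the 5 genes, DESeq2 called 1, both left out 1 and voom 2 in NaNO3 against water, and 3, 2 and 2 in NH4Cl against water; between the salts the transporter alone, 1 gene, was called with only these groups in the fit.

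Without any 1 library the counts ran from 0 to 700, 0 to 365 and 0 to 535, and those of the 5 genes from 0 to 1, 0 to 0 and 0 to 2, in the same order. The second nitrate reductase gene reversed in NH4Cl against water: 0.19 became −0.14 without NH4Cl replicate 3, −0.17 without both libraries that stand apart and −0.0146 with voom weights (range −0.14 to 0.41 without any 1 library). The other values of the 5 genes kept their direction under every alternative run. The cause of these shifts was not tested.

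With the replicate number as a block, edgeR called 0 genes (3205 at an unadjusted p under 0.05), 0 (2444) and 3 in the 3 comparisons, and 0 of the 5 genes between the salts (adjusted p 0.0796 for the transporter and 0.0946 for the nitrate reductase). Same-numbered libraries correlated in their deviations at −0.28 to 0.29, and 3 of 9 libraries correlated best with their own number, so the numbers were not taken to pair libraries. These correlations include both libraries that stand apart, which carry different numbers, so they cannot exclude pairing. The ratio tests and their alternatives were chosen after seeing the data. Depth limits the transporter most, at 5 to 10 counts with NH4Cl.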

Other observations

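Further enzymes near the pathway gave values not described above. Nitronate monooxygenases oxidise nitroalkanes and release nitrite. Of 11 tested genes found by words for these enzymes or for nitric oxide, 1 fell with NaNO3 against water by edgeR, beside 3.88% of all genes. In the other comparisons edgeR called 0 of the 11. The gene that fell was the nitronate monooxygenase domain gene BC629DRAFT_1539413. It fell from 261 ± 4.9 to 120 ± 7.31 CPM (SD, n = 3; log2 −1.11 ± 0.19, adjusted p = 0.0235), and stood at 129 to 196 CPM with NH4Cl. The most abundant of the family, BC629DRAFT_1276318, stood at 2871 ± 195 CPM with water, 3346 ± 302 with NH4Cl and 3144 ± 1242 with NaNO3, and was not called. NewGene_3050 stood at 152 ± 10.6, 116 ± 33.1 and 99.3 ± 22.6 CPM. Of the 23 other tested genes under KEGG nitrogen metabolism, edgeR called 1 higher with NaNO3 against water, the glutamine synthetase domain gene given above, and 0 in the other comparisons. Before adjustment 6 were higher and 2 lower with NaNO3 against water, 3 and 3 with NH4Cl against water, and 8 and 2 with NaNO3 against NH4Cl (DESeq2: 1 and 0, 2 and 1, 6 and 2; voom: 1 and 1, 2 and 1, 4 and 1; limma: 0). Cyanate hydratase (BC629DRAFT_1437629), which breaks down cyanate, stood at 499 ± 51.5 CPM with water, 319 ± 73.9 with NH4Cl and 322 ± 114 with NaNO3.

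Sulfite reductase resembles nitrite reductase in using siroheme. Of 11 tested genes of sulfite and sulfate use, edgeR called 0 in any comparison (before adjustment p was under 0.05 for 1 higher and 1 lower, 2 and 1, and 0 and 2 in NaNO3 against water, NH4Cl against water and NaNO3 against NH4Cl; DESeq2: 0 and 0, 2 and 1, 0 and 1; voom: 1 and 0, 2 and 1, 0 and 1; limma: 0). edgeR without both libraries that stand apart called 0, then 2 higher and 1 lower, then 2 higher. The beta subunit of sulfite reductase (BC629DRAFT_1451392) stood at 63.7 to 84.7 CPM with water, 21.4 to 30.2 with NH4Cl and 17.9 to 50.9 with NaNO3. Every library of either salt was thus below every water library, as for 16.1% of all genes with NH4Cl and 18.8% with NaNO3. The log2 difference of this subunit was −1.59 ± 0.36 with NH4Cl against water (adjusted p = 0.0736, edgeR). The flavoprotein component of sulfite reductase (BC629DRAFT_1583190) stood at 64.4 to 84.9 CPM with water, 40.4 to 58.8 with NH4Cl and 25.9 to 124 with NaNO3. Among 12 genes found by words for cytochrome b5 or its reductase, domains that nitrate reductase also carries, edgeR called 1 higher and 0 lower in each comparison. Of all genes it called 1.18%, 0.277% and 0.5% higher with NaNO3 against water, NH4Cl against water and NaNO3 against NH4Cl. In that order, p before adjustment was under 0.05 for 2 higher and 2 lower, 2 and 3, and 1 and 2. DESeq2 called 2 and 1, 1 and 2, and 1 and 0. Voom called 2 and 2, 1 and 3, and 1 and 0, and limma 1 and 0, 0 and 0, and 1 and 0. Against water the gene called by edgeR was BC629DRAFT_163522, a fatty acid desaturase, which rose from 20.6 ± 4.61 CPM to 50.4 ± 13.4 with NH4Cl (log2 1.29, adjusted p = 0.0452) and 43.5 ± 1.70 with NaNO3 (log2 1.08, adjusted p = 0.0351). NADH-cytochrome b5 reductase 2 (BC629DRAFT_1588484) rose with NaNO3 against NH4Cl from 32.2 ± 1.33 to 70.7 ± 3.22 CPM (log2 1.14 ± 0.12, adjusted p = 0.0133), with water at 49.9 ± 4.05. Without both libraries that stand apart edgeR also called this gene against water, higher with NaNO3 (log2 0.53) and lower with NH4Cl (log2 −0.64).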
